A study of Homo sapiens with 8 samples.

Results

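A lone promoter is here the promoter of a protein-coding gene with no other annotated transcript start in the 10 kb upstream of its transcription start site (TSS), so that RNA polymerase II (RNAPII) in this flank does not lie at another annotated start. Starts were taken from the longest protein-coding isoform in GENCODE release 44 lifted to hg19 (GRCh37), and 6413 of 19794 protein-coding promoters (32.4%) met the rule. Starts of the same gene counted as other starts, and they were the nearest start upstream at 6350 of the 13381 promoters that did not meet it. At the lone promoters the nearest start upstream lay at a median of 26.3 kb. Of their flanks, 4241 held no annotated gene body, 1084 were overlapped by a gene on the same strand, 902 by a gene on the opposite strand and 186 by both.

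RNAPII occupancy was measured by chromatin immunoprecipitation and sequencing (ChIP-seq) in MDA-MB-453, an established human breast cancer cell line. Cells received vehicle or 600 nM CDDD11-8, an inhibitor of the kinase CDK9, for 4 h, and each treatment has 2 biological replicates from consecutive passages of the line. The 4 ChIP peak lists are described here, and the 4 input samples were not analysed here. The vehicle lists hold 78306 and 57493 peaks and the CDDD11-8 lists 25897 and 21842 (replicates 1 and 2 throughout), covering 108.5, 87.3, 67.7 and 54.6 Mb, with median peak widths of 612, 660, 1169 and 1356 bp. Sequencing depth is unknown from these lists. Promoters of 10 of 12 luminal markers, KRT8, KRT18, FOXA1 and GATA3 among them, had a peak in all 4 libraries, whereas 0 of 5 basal, 0 of 4 immune and 0 of 2 annotated endothelial markers had one in any library. Of the mesenchymal markers 1 of 5, ZEB1, had a peak in all 4 libraries, and 0 of 5 genes taken as silent controls had one.

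Most active mammalian promoters initiate in both directions. Polymerase that starts upstream on the opposite strand makes short upstream antisense transcripts, also called PROMPTs, which are usually terminated early at poly(A) signals and degraded by the nuclear exosome, while polymerase on the gene side pauses a short way into the gene. CDK9, the kinase of P-TEFb, phosphorylates the pausing factors and the polymerase tail and so releases paused polymerase into elongation. ChIP-seq of total RNAPII does not record the strand of transcription, so upstream polymerase moving away from a gene and polymerase arriving from a gene further upstream cannot be told apart.

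A trio of promoters shows the range of base composition behind the results. The 250 bases upstream of the TSS are printed 5′ to 3′ on the strand of the gene, with each CG dinucleotide in capitals, because the share of lone promoters that held RNAPII followed CpG content. SDC1 (chr2:20425195-20425444, minus strand) encodes the heparan sulfate proteoglycan syndecan-1 and had the largest positive coverage difference in its flank. CFAP70 (chr10:75118623-75118872, minus strand) encodes a cilium-associated protein and had the largest negative one. CLCA2 (chr1:86889604-86889853, plus strand) encodes a chloride channel accessory protein and had the lowest promoter CpG content among the lone promoters with a gene-free flank and a promoter peak in all 4 libraries.
SDC1: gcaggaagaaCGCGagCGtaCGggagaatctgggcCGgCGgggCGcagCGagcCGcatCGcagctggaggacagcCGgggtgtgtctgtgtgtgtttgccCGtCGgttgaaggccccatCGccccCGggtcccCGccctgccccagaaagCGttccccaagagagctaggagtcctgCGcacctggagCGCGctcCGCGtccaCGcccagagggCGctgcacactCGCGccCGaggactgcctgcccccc
CFAP70: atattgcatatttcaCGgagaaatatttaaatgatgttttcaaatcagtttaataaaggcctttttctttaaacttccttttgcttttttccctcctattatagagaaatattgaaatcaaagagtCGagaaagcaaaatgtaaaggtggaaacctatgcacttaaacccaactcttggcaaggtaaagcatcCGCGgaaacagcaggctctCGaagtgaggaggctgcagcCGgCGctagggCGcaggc
CLCA2: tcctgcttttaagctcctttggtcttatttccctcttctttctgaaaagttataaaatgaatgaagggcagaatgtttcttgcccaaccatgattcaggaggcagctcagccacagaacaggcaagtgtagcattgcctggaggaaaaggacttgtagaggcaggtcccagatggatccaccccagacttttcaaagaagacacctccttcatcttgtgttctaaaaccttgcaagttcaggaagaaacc
The stretches hold 27, 8 and 0 CG dinucleotides at a GC content of 71.2%, 40.4% and 44.8%, respectively.

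Close to the TSS, a larger part of the upstream flank lay under RNAPII peaks in CDDD11-8-treated cells, and far from it a smaller part did. Over all 6413 lone promoters, peaks covered 21.5% and 22.4% of the window 0.3-1 kb upstream in vehicle-treated cells, against 29.2% and 27.4% after CDDD11-8. The next window, 1-2 kb upstream, was covered to 10.0% and 9.49% with vehicle and to 19.6% and 16.8% with CDDD11-8. Both treated libraries thus lay above both vehicle libraries in the first 2 kb, by 6.42 percentage points in the nearer window and by 8.45 in the farther one. Between 2 and 5 kb the groups overlapped, at 3.59% and 3.03% with vehicle and 4.22% and 2.77% with CDDD11-8. From 5 to 10 kb upstream the order was turned around, with 3.50% and 2.53% covered in vehicle and 1.55% and 1.03% in CDDD11-8 cells, a difference of -1.72 percentage points. Group means ± SD (n = 2) were 9.76 ± 0.386% against 18.2 ± 1.98% at 1-2 kb and 3.02 ± 0.686% against 1.29 ± 0.368% at 5-10 kb. With 2 libraries against 2, the exact two-sided permutation test cannot give a p below 0.333, the value it gave in these 3 windows (Benjamini-Hochberg adjusted over the 4 windows, 0.444; 2-5 kb, p = 1), so no difference reported here could pass a threshold of 0.05.

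**Figure D1:**
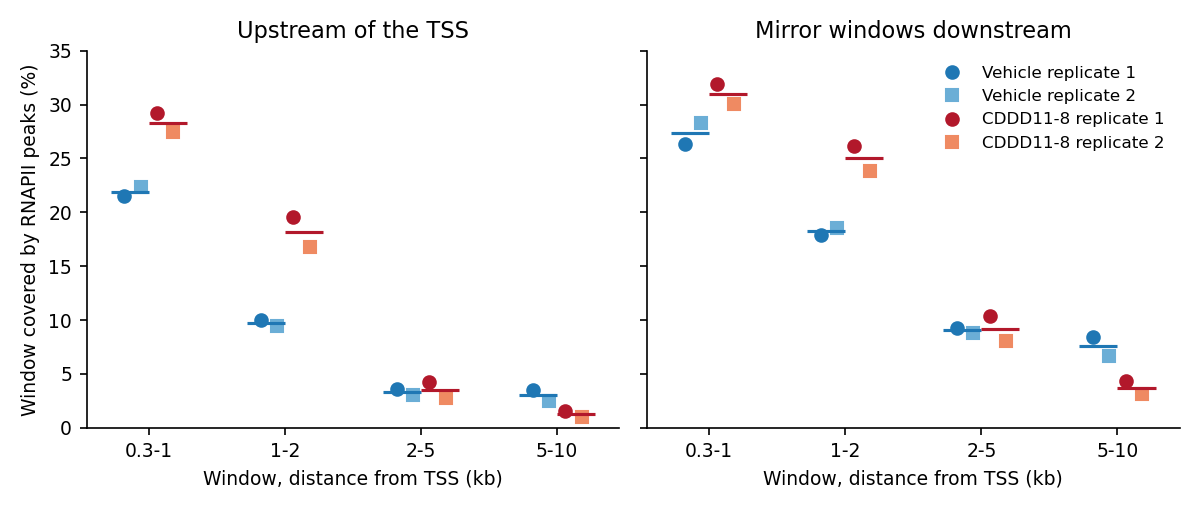
Percent of each window covered by RNAPII peaks (y axis) against its distance from the TSS in kb (x axis) over all 6413 lone promoters, upstream on the left and in the mirror windows downstream on the right. Points are single libraries and short lines are group means (n = 2); both CDDD11-8 libraries lie above both vehicle libraries within 2 kb and below them at 5-10 kb on either side.

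The mirror windows downstream, which cover the first part of the gene, held more RNAPII in every library and showed the same order of the groups. At 1-2 kb downstream, coverage was 17.9% and 18.5% with vehicle and 26.2% and 23.9% with CDDD11-8. At 5-10 kb downstream it was 8.46% and 6.67% against 4.32% and 3.14%. Upstream minus downstream coverage was negative in all 4 libraries and all 4 windows, and both treated libraries were closer to 0 than either vehicle library at 0.3-1 kb (-4.90 and -5.95 against -2.71 and -2.67 percentage points), at 1-2 kb (-7.87 and -9.06 against -6.57 and -7.04) and at 5-10 kb (-4.96 and -4.14 against -2.77 and -2.10; exact p = 0.333 in each). As a ratio of upstream to downstream coverage over all lone promoters, both treated libraries were higher at 1-2 kb (0.560 and 0.512 against 0.749 and 0.705). At 5-10 kb they were lower (0.414 and 0.379 against 0.360 and 0.330), so there the difference and the ratio gave opposite orders. This lower ratio at 5-10 kb was not seen at the promoters with RNAPII at the TSS, as given below.

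Summits, the single positions of highest pileup within a peak, differed between the sides at 1-2 and 2-5 kb and gave the same order at 0.3-1 and 5-10 kb. At 1-2 kb upstream, 11.2% and 9.59% of lone promoters had at least 1 summit with vehicle and 15.6% and 14.3% with CDDD11-8, a difference of 4.52 percentage points. At 2-5 kb upstream the shares were 7.38% and 6.003% against 10.4% and 7.42%. The mirror window 1-2 kb downstream held a summit at 18.5% and 18.2% against 18.4% and 17.5% of the promoters, where the groups overlapped. The groups also overlapped at 2-5 kb downstream, at 16.7% and 15.55% against 18.0% and 15.2%. Nearest the TSS, at 0.3-1 kb upstream, the treated libraries had fewer promoters with a summit (10.2% and 10.6% against 12.2% and 11.7%) although more of that window was covered. They had fewer at 0.3-1 kb downstream too, at 15.4% and 15.95% against 16.4% and 18.7%. At 5-10 kb they also had fewer, 3.87% and 2.76% against 8.03% and 6.30% upstream and 8.30% and 6.44% against 17.3% and 13.7% downstream.

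The lone promoters divide into those with RNAPII at the TSS and those without. A promoter peak, meaning a peak that overlapped the 300 bp on either side of the TSS, was present at 31.7%, 32.5%, 34.3% and 32.3% of lone promoters, against 61.1%, 62.0%, 63.3% and 61.2% of the other protein-coding promoters. It was present in all 4 libraries at 1877 lone promoters (29.3%), which are called occupied below, in no library at 4093 and in some at 443. Occupied promoters were chosen by the peaks themselves, so the share of windows covered at them is a description of that class. Among them, coverage at 1-2 kb upstream was 30.9% and 29.6% with vehicle and 64.7% and 56.3% with CDDD11-8, and at 5-10 kb upstream it was 6.66% and 4.86% against 3.35% and 2.28%. Along the profile in bins of 100 bp, both CDDD11-8 libraries were above both vehicle libraries in each bin from the TSS to 2900 bp upstream, and below both in each bin from 3800 bp to the end of the flank. Downstream the same limits were 2900 and 3500 bp.

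**Figure D2:**
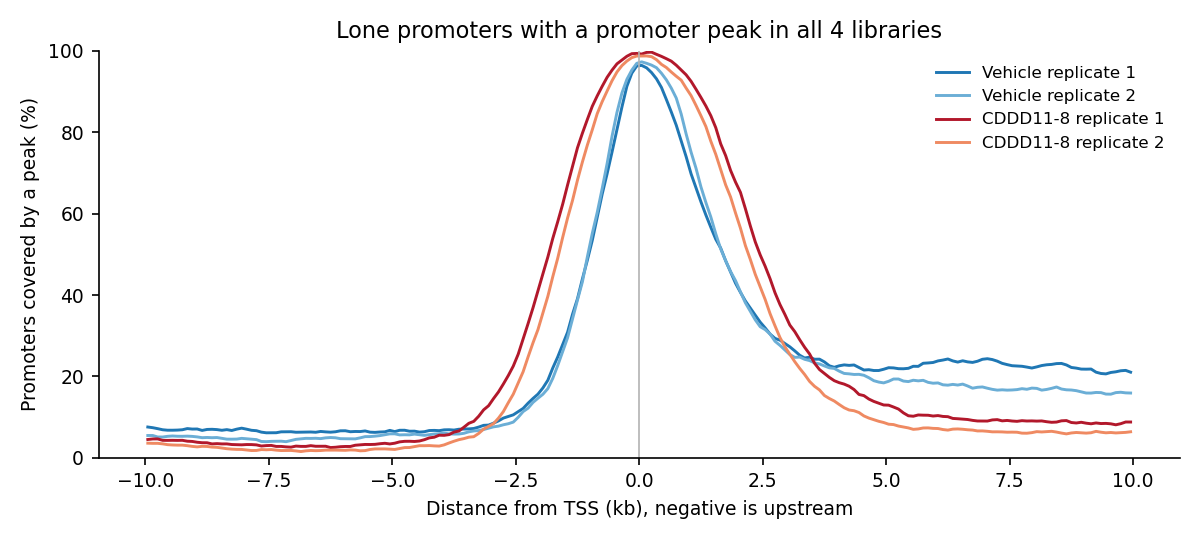
Percent of the 1877 occupied lone promoters covered by a peak (y axis) in bins of 100 bp against distance from the TSS in kb (x axis, upstream negative), 1 line per library. The CDDD11-8 lines are above the vehicle lines near the TSS and below them beyond 3800 bp upstream and 3500 bp downstream.

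Counted promoter by promoter, 1044 lone promoters (16.3%) had more of the 1-2 kb window covered in each treated library than in either vehicle library, and 102 (1.59%) had less. Over all protein-coding promoters the same shares were 23.2% and 2.29%. At 0.3-1 kb the lone promoters counted 726 higher and 89 lower (11.3% and 1.39%, against 12.3% and 1.68% of all promoters), at 2-5 kb 443 and 215 (6.91% and 3.35%, against 15.1% and 6.49%), and at 5-10 kb 83 and 282 (1.29% and 4.40%, against 4.21% and 9.88%). The lone promoters thus had no larger share than all promoters in any window or direction. Among occupied promoters alone, the higher shares of the lone promoters were 33.1%, 54.1%, 22.6% and 2.34% from the nearest to the farthest window. Over all occupied promoters they were 21.7%, 45.5%, 28.6% and 5.62%. The lower shares were 1.60%, 2.77%, 6.55% and 7.46%, beside 1.24%, 2.5%, 9.94% and 15.4% of all occupied promoters.

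Near the TSS the additional coverage lay within the promoter peak itself. The upstream edge of that peak stood at a median of 968 and 1012 bp from the TSS with vehicle and at 1772 and 1591 bp with CDDD11-8, 692 bp further out (990 ± 31.1 against 1682 ± 128 bp, n = 2, exact p = 0.333). The downstream edge stood at 1445 and 1518 bp against 2343 and 2131 bp, 756 bp further out. The difference was present at the 10th as well as the 90th percentile of the upstream edge, which was 278 and 340 against 780 and 644 bp, and 2212 and 2147 against 3026 and 2675 bp. The upstream edge was further out in both CDDD11-8 libraries at 1336 occupied lone promoters (71.2%, beside 66.5% of all occupied promoters) and less far in both at 104 (5.54%, beside 7.18%). Reach beyond 5 kb upstream was rare, at 1.86% and 1.54% of occupied promoters with vehicle and 1.49% and 0.480% with CDDD11-8.

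**Figure D3:**
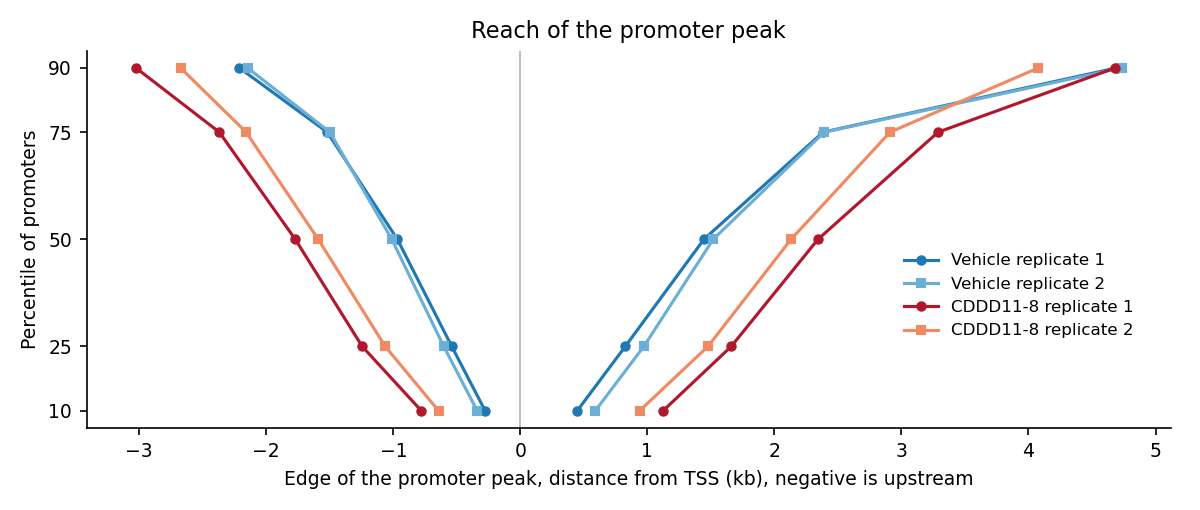
Distance of the promoter peak's edge from the TSS in kb (x axis, upstream negative) at the 10th, 25th, 50th, 75th and 90th percentile (y axis) of the 1877 occupied lone promoters, 1 line per library and side. Upstream, both CDDD11-8 lines lie outside both vehicle lines at all 5 percentiles; downstream they do so up to the 75th.

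Peaks separate from the promoter peak gave orders that depended on the bases counted. As a share of the whole window, their coverage at occupied lone promoters was 3.49% and 2.68% with vehicle and 2.13% and 2.01% with CDDD11-8 at 1-2 kb, and 5.83% and 4.16% against 2.70% and 2.14% at 5-10 kb. The wider promoter peak leaves fewer bases for separate peaks near the TSS. As a share of the bases that the promoter peak left free, a measure added after seeing the data, separate peaks covered 4.11% and 3.18% against 6.03% and 4.94% at 0.3-1 kb, where both treated libraries were higher. At 1-2 kb this share was 4.80% and 3.67% against 5.67% and 4.39%, where the groups overlapped, and at 5-10 kb it was 5.88% and 4.19% against 2.72% and 2.14%, lower in both treated libraries. In gene-free flanks separate peaks covered more of the whole 2-5 kb window in both treated libraries (1.37% and 1.20% against 2.16% and 1.64%), and at 5-10 kb the groups overlapped. When each library was limited to its 21842 strongest peaks, however, the 1-2 kb value outside the promoter peak turned to 1.03 percentage points higher with CDDD11-8, and the 2-5 kb value to 0.583 higher. Under the same limit total coverage over all lone promoters kept its order, at 8.81% and 8.70% against 19.4% and 16.8% at 1-2 kb and 2.26% and 1.78% against 1.46% and 1.03% at 5-10 kb.

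Enrichment at the TSS was higher where the peaks reached further. The median fold enrichment of the strongest summit within 300 bp of the TSS of occupied lone promoters was 4.91 and 7.26 with vehicle and 21.3 and 14.5 with CDDD11-8. The strongest summit 0.3-10 kb upstream had a median fold enrichment of 4.22 and 4.52 against 5.45 and 4.97. The median log2 ratio of upstream to promoter enrichment, taken within a library over lone promoters with both summits (951 to 1304 of them), was -0.35 and -0.78 with vehicle and -1.91 and -1.48 with CDDD11-8, a difference of -1.13 on the log2 scale (exact p = 0.333). Over occupied lone promoters only, the mirror ratio of downstream to promoter enrichment was also lower in both treated libraries, at -0.15 and -0.54 against -1.29 and -0.89. The upstream ratio of that same set was -0.42 and -0.82 against -1.98 and -1.51. Both ratios share the promoter enrichment as denominator. Among occupied lone promoters grouped by the CDDD11-8 to vehicle ratio of promoter enrichment, the quartile with the lowest ratio (median 1.54, n = 362) had upstream edges at 902 and 890 against 1274 and 1072 bp, and the quartile with the highest (median 4.34, n = 363) at 869 and 974 against 2071 and 1875 bp. The part of peak height in the reach was not tested, nor was that of library depth and pileup scaling in the fold enrichments.

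With both edges further out, measures of the balance between the sides gave different orders. The ratio of upstream to downstream coverage at 1-2 kb of occupied lone promoters was 0.554 and 0.512 with vehicle and 0.796 and 0.745 with CDDD11-8, nearer to equal in the treated libraries. At 5-10 kb it was 0.294 and 0.282 against 0.356 and 0.343, higher in both treated libraries, unlike over all lone promoters. In contrast, the share of occupied lone promoters whose peak reached further upstream than downstream was 28.4% and 24.9% with vehicle and 20.8% and 22.3% with CDDD11-8. The strongest promoter summit lay upstream of the TSS at 35.3% and 38.3% against 27.5% and 27.6% of them. At occupied promoters with another start upstream these summit shares were 43.3% and 45.1% against 39.0% and 39.2%. Across the occupied lone promoters, the upstream and downstream edges had a Spearman correlation of 0.51 and 0.46 with vehicle and 0.66 and 0.63 with CDDD11-8. Each correlation is over promoters of 1 library, which share its depth and threshold.

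Compared with promoters that do have another start upstream, lone promoters had less RNAPII in the flank in all 4 libraries. The difference at 1-2 kb upstream was -23.1 and -23.3 percentage points with vehicle and -29.3 and -27.7 with CDDD11-8. Many lone promoters had no promoter peak, and among occupied promoters the same difference was -22.7 and -23.6 with vehicle and -16.0 and -17.9 with CDDD11-8. The difference between treatments in this gap therefore had opposite signs over all promoters (-5.27) and over occupied ones (6.13; exact p = 0.333 in both). Downstream of the TSS the occupied classes lay closer together, at -5.01 and -3.43 against -4.12 and -4.54 percentage points at 1-2 kb. The median upstream edge of the other occupied promoters was at 1446 and 1466 bp with vehicle and 2390 and 2104 bp with CDDD11-8.

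Far upstream, RNAPII coverage differed with the gene bodies that enter the flank. At occupied lone promoters with a same-strand gene in the flank, coverage at 5-10 kb upstream was 19.0% and 15.04% with vehicle and 7.87% and 4.40% with CDDD11-8 (n = 331). With an opposite-strand gene it was 4.99% and 2.95% against 2.11% and 1.80% (n = 259), with genes on both strands 22.8% and 16.5% against 3.70% and 4.03% (n = 59), and with no gene 2.91% and 1.96% against 2.38% and 1.72% (n = 1228), where the groups overlapped. At 1-2 kb upstream both treated libraries were above both vehicle libraries in each of these 4 classes, at 25.5% and 24.5% against 62.9% and 54.6% for gene-free flanks and 43.1% and 40.7% against 67.2% and 56.9% for flanks with a same-strand gene. Over all lone promoters, flanks with a same-strand gene exceeded gene-free flanks across 0.3-10 kb by 8.97 and 7.28 percentage points with vehicle and by 2.77 and 1.65 with CDDD11-8, a difference of -5.92 between treatments. For opposite-strand genes the excess was 1.43 and 1.08 against 0.366 and 0.305 (-0.919; exact p = 0.333 for each).

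Among the gene-free flanks the distance to the end of the nearest same-strand protein-coding gene upstream was set beside coverage at 5-10 kb, which was highest in the nearest class in every library. Where that gene ended 10-20 kb from the TSS (n = 161), coverage was 12.4% and 8.05% with vehicle and 7.59% and 4.67% with CDDD11-8. Where it ended 20-50 kb away (n = 216) the values were 1.39% and 0.771% against 1.73% and 1.33%, where the groups overlapped. At 50-100 kb (n = 199) they were 3.44% and 2.45% against 3.17% and 2.66%, overlapping and above the 20-50 kb class, and beyond 100 kb (n = 652) they were 0.901% and 0.703% against 1.07% and 0.833%. The levels thus did not fall steadily with distance. Lower coverage in both treated libraries at 5-10 kb was thus seen in the nearest of these distance classes and in no other, whereas at 1-2 kb coverage was higher in both treated libraries in each distance class. The difference between the distance classes was described and not tested.

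**Figure D4:**
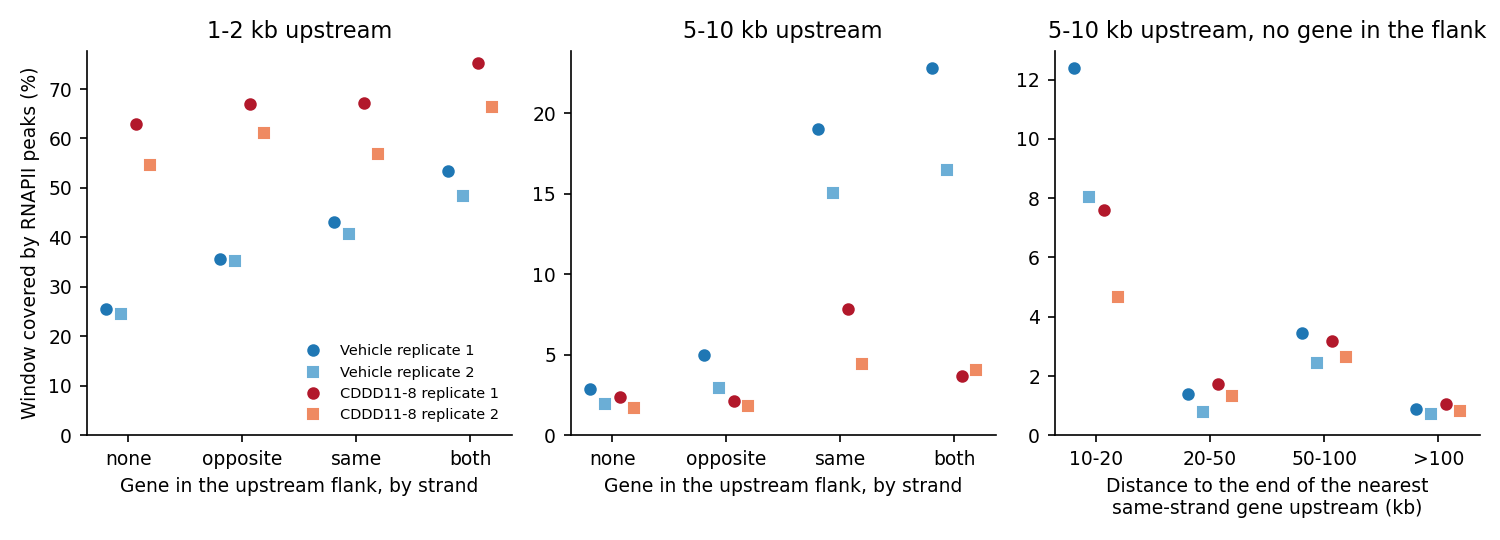
Percent of the window covered by peaks (y axes, separate scales) in each library at occupied lone promoters, by the strand of a gene in the flank at 1-2 kb (left) and 5-10 kb upstream (middle), and, for gene-free flanks at 5-10 kb, by distance to the end of the nearest same-strand gene (right). At 1-2 kb the CDDD11-8 points are above the vehicle points in all 4 classes; at 5-10 kb the largest gap is in flanks with a same-strand gene or genes on both strands.

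The share of lone promoters that held RNAPII was higher where the promoter was richer in CpG. The ratio of observed to expected CpG within 300 bp of the TSS was below 0.3 at 1974 lone promoters, of which 44 (2.23%) were occupied, and 0.8 or more at 2081, of which 1162 (55.8%) were. The mean ratio was 0.812 at occupied and 0.441 at unoccupied lone promoters, against 0.642 over all protein-coding promoters. Median upstream edges of the CpG-richest class were 993 and 1057 bp with vehicle and 1864 and 1676 bp with CDDD11-8, and those of the CpG-poorest 719 and 616 against 1188 and 816 bp. CLCA2, without a CG in the stretch shown, had 38.2% and 41.8% of its 0.3-10 kb flank covered with vehicle and 22.0% and 17.1% with CDDD11-8, and its peak reached 3266 and 2733 against 2434 and 1536 bp upstream. By GC content of the 1-2 kb window itself, coverage of that window at occupied promoters was 21.2% and 24.4% against 58.8% and 50.9% in the lowest tertile (n = 619) and 38.9% and 35.3% against 68.8% and 59.4% in the highest (n = 627). In the class poorest in promoter CpG (n = 44), however, the groups overlapped at 1-2 kb (27.96% and 22.9% against 39.7% and 27.81%), and at 2-5 kb both treated libraries were lower (13.7% and 8.36% against 4.47% and 2.29%).

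Upstream and downstream flanks differed in the sites that bear on transcript fate. The hexamer AATAAA, the core poly(A) signal, was searched as read away from the TSS on either side, that is on the opposite strand upstream and on the gene's strand downstream, and so was GGTAAG, a strong match to the start of an intron that U1 snRNP can bind. At occupied lone promoters AATAAA was found 0.812 times per kb at 0.3-1 kb upstream and 0.272 times downstream, and 1.05 against 0.596 times at 1-2 kb. GGTAAG showed the reverse order, with 0.116 against 0.190 per kb at 0.3-1 kb and 0.138 against 0.189 at 1-2 kb. At 1-2 kb upstream 52.5% of occupied lone promoters held an AATAAA, against 48.6% of all protein-coding promoters. GC content at 0.3-1 kb was 48.7% upstream and 58.9% downstream, and the part of base composition in these densities was not tested. OSTC, a subunit of the oligosaccharyltransferase complex and one of the genes with a large positive difference described next, held its nearest such AATAAA 1475 bp upstream. The surrounding 106 bases (chr4:109570211-109570316, minus strand) are printed 5′ to 3′ as read away from the gene, with that hexamer in capitals. They are shown as an example of such a site, and a second aataaa follows it directly. SDC1, PSMC3 and SPRYD7, which also had large positive differences, held no AATAAA in this orientation between 0.3 and 2 kb upstream.
OSTC upstream site: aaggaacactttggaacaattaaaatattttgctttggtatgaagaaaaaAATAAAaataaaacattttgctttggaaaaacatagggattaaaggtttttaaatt

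The 5 gene-free flanks with the largest positive differences belonged to SDC1, TRAPPC9, PSMC3, SPRYD7 and OSTC. These were picked on the smaller of their differences between same-numbered libraries, so their values are a description. SDC1 had 17.4% and 7.64% of its 0.3-10 kb flank covered with vehicle and 79.1% and 64.4% with CDDD11-8. Its promoter peak reached 1123 and 1041 bp upstream with vehicle and 3600 and 2376 bp with CDDD11-8, and 17.3% and 0% of its 5-10 kb window were covered with vehicle against 78.3% and 58.1%, so separate peaks far upstream contributed as well. PSMC3, an ATPase subunit of the proteasome's regulatory particle, had 9.97% and 5.84% covered against 60.7% and 45.1%. TRAPPC9, a subunit of a vesicle tethering complex, had 17.7% and 17.9% against 63.2% and 58.9%. SPRYD7 had 31.2% and 32.1% against 85.6% and 69.1%, and OSTC 19.0% and 9.30% against 63.7% and 38.4%. All 5 had a larger share of the 5-10 kb window covered in both treated libraries. That window is part of the 0.3-10 kb flank on which they were picked, so this order follows in large part from the choice.

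The 5 largest negative differences, picked in the same way, were at CFAP70, RLF, CANX, ARFGEF3 and HSP90AB1. CFAP70 had 75.5% and 60.9% of its flank covered with vehicle and 9.41% and 13.9% with CDDD11-8, with its promoter peak reaching 1679 and 1786 against 1213 and 1651 bp upstream. The nearest same-strand protein-coding gene upstream of it, ANXA7, ends 16.2 kb from its TSS. At HSP90AB1 such a gene also ends 10-20 kb away. At RLF, CANX and ARFGEF3, however, it ends 88.7, 68.6 and 278.6 kb from the TSS. The part of an upstream gene in these differences was not tested. RLF, a zinc finger protein gene, had 75.5% and 70.4% against 27.7% and 27.4%, and CANX, which encodes the endoplasmic reticulum chaperone calnexin, 85.2% and 67.0% against 32.8% and 34.1%. At CFAP70, RLF, CANX and ARFGEF3 the 5-10 kb window was covered to between 36.0% and 74.6% with vehicle and to 0% in both CDDD11-8 libraries. HSP90AB1, a cytosolic HSP90 chaperone gene, had 89.9% and 94.3% against 63.5% and 42.6%. No library had a summit within 300 bp of its longest isoform's start, although a peak overlapped those 300 bp in all 4.

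Flanks with the highest vehicle coverage were those of KLF16, GNG13, TMEM268, HSP90AB1 and CDR2L. KLF16, a Krüppel-like transcription factor gene, had 95.5% and 100% covered with vehicle and 94.9% and 81.7% with CDDD11-8. GNG13, a G protein gamma subunit gene, had 94.4% and 92.8% against 97.4% and 94.1%, where the groups overlapped. CDR2L had 90.7% and 80.2% against 100% and 98.2%, and TMEM268 98.3% and 88.2% against 72.7% and 63.9%. The direction was not shared among these flanks. They were picked for high vehicle coverage, which leaves little room for higher values with CDDD11-8, so their direction is a description.

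**Figure D5:**
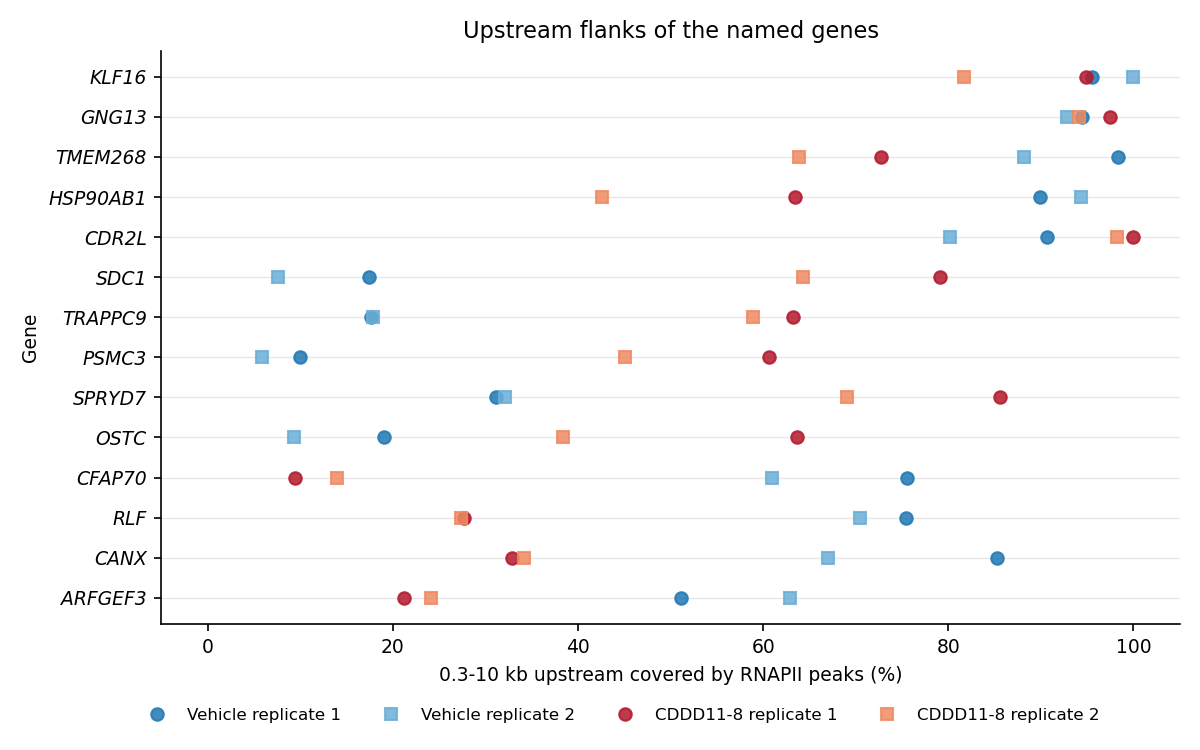
Percent of the 0.3-10 kb upstream flank covered by RNAPII peaks (x axis) for the 14 genes named for high vehicle coverage or for large differences (y axis), 1 point per library. The points of SDC1, TRAPPC9, PSMC3, SPRYD7 and OSTC lie higher with CDDD11-8, those of HSP90AB1, CFAP70, RLF, CANX and ARFGEF3 lie lower, and those of GNG13 overlap.

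The listed pathways are described through their lone members, beside 32.4% lone among all protein-coding promoters. For the direction in each list, the reference is all 1877 occupied lone promoters, of which 1257 were higher and 193 lower in both treated libraries. Higher was thus the usual direction, and no list was tested against it. Of 10 immediate-early genes 0 were lone, and of 8 genes listed as short-lived and CDK9-dependent 2 were. The lifetime and CDK9 dependence of their transcripts were not measured here. CCND1, encoding cyclin D1, had 49.7% and 49.5% of its flank covered with vehicle and 55.6% and 56.4% with CDDD11-8. BCL2L1, encoding the survival protein BCL-XL, had 2.91% and 1.16% against 13.02% and 16.5%, and its promoter peak reached 90 and 412 against 1563 and 1904 bp upstream. As at HSP90AB1, however, no library had a summit within 300 bp of its longest isoform's start. The same peak reached 9320 and 5686 against 7473 and 5503 bp downstream. Both treated libraries were higher for each of these genes.

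Of the G2/M and E2F genes 5 of 14 were lone, E2F1, E2F2, MKI67, TOP2A and RRM2, and all 5 had more of the flank covered in both CDDD11-8 libraries. E2F2, an activator E2F transcription factor, had 16.4% and 14.98% against 27.9% and 23.3%, with the edge at 1893 and 1753 against 3009 and 2556 bp. MKI67, the Ki-67 proliferation antigen, had 5.58% and 5.50% against 17.9% and 10.8%. The median difference of these genes was 8.85 percentage points, beside 5.87 over all 1877 occupied lone promoters.

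Of the elongation genes 3 of 20 were lone. CDK12, another kinase of the polymerase tail, had 32.2% and 19.99% against 49.2% and 57.6%, and CCNT1, the cyclin partner of CDK9, 9.36% and 4.73% against 16.0% and 19.1%. CDK7, the kinase of TFIIH, with a same-strand gene in its flank, had 32.7% and 27.7% against 32.4% and 27.8%, where the groups overlapped. Of the genes for nuclear RNA turnover and termination 5 of 17 annotated were lone, with 4 higher and 1 lower in both treated libraries. EXOSC3, a core subunit of the exosome, had 12.3% and 10.9% against 33.2% and 24.8%, and PCF11, a cleavage and termination factor, 16.1% and 12.7% against 22.5% and 22.2%. EXOSC10, a catalytic subunit of the nuclear exosome, with genes of both strands in its flank, was the lower one at 53.2% and 34.9% against 28.1% and 24.7%.

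Of the luminal lineage genes 6 of 16 were lone and 4 of these occupied, with 1 higher and 0 lower in both treated libraries. That gene was KRT18, a luminal keratin, at 24.0% and 20.8% against 44.9% and 26.2%. SPDEF, an ETS factor of luminal cells, had 14.9% and 14.9% against 18.8% and 11.5%, and the keratin gene KRT19 64.0% and 58.8% against 59.5% and 54.0%. The groups overlapped at both genes. PIP had a promoter peak in 1 library and AGR2 in 0.

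Promoters close to the 10 kb limit gave similar values on either side of it. With the nearest start at 10-12 kb (559 promoters, 181 of them occupied), the occupied promoters had median upstream edges of 1125 and 1122 bp with vehicle and 1866 and 1645 bp with CDDD11-8. With the nearest start at 8-10 kb (692 promoters, 235 occupied), which are not lone, the medians were 1078 and 1127 against 1946 and 1647 bp. At 5-10 kb upstream, mean coverage of the occupied promoters just inside the limit was 17.4% and 13.2% against 12.6% and 9.36%. Just outside the limit it was higher in every library, at 20.4% and 17.9% against 18.2% and 13.7%.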

How the data were processed

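The authors aligned RNAPII ChIP-seq reads with Bowtie2 to hg19 (GRCh37) and called peaks with MACS2 for each library against its input, per the labels and the study's methods. The deposited lists give, per summit, the pileup signal, the fold enrichment (a ratio to the local background) and -log10 q-values of 2 or more. The region start, region end and summit positions deposited with them made up the windows. Pileups were whole numbers in the vehicle lists and scaled in the CDDD11-8 lists, so pileup was not compared, and the depth of each library cannot be read from these lists. Coverage, summits and peak edges were computed per library in Python 3.11 (numpy, pandas) around each TSS, tested on simulated peaks first. Group means of 2 libraries were compared with an exact two-sided permutation test over 6 splits, Benjamini-Hochberg adjusted over windows. The members and gene lists were chosen with earlier results of these data known. Named genes were the 5 gene-free occupied flanks, on autosomes and X, of highest vehicle coverage, largest positive and largest negative difference (ranked on the smaller same-numbered difference), and listed genes that are lone. CLCA2 was added for its CpG content after its values were seen. A total of 32 lone promoters share a TSS with another, so the promoters are not all independent. The values of 1 listed gene are not reported here.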

Additional observations from a re-analysis of the deposited data

How the results depend on the processing

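Replicates are 2 per treatment and depth cannot be read from these lists, so differences of a few percentage points in sparse windows could not be resolved, and a peak's edge depends on the authors' calling threshold. All values below are CDDD11-8 minus vehicle, in percentage points unless counts of promoters are named. The upstream edge (690.5 to 717 bp further out with CDDD11-8, and 601 to 782 without 1 library), the upstream summits in all 4 windows, the upstream coverage at 5-10 kb (-2.95 to -0.355) and the flank class differences kept their direction under the alternatives tried, as did both edges and the ratio of upstream to promoter enrichment without any 1 library. Coverage at 0.3-1 and 1-2 kb upstream kept its direction except without the promoter peak, an alternative that removes the peak whose edge moved: it then gave -0.182 and -0.592 upstream, -0.856 at 2-5 kb upstream, and -0.714, -1.67 and -2.04 at 0.3-1, 1-2 and 2-5 kb downstream. For the results that changed sign below, the cause was not tested.

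Differences near 0 changed sign easily. Without 1 library, coverage at 2-5 kb ranged from -0.540 to 0.914 upstream (below 0 without CDDD11-8 replicate 1 or vehicle replicate 2) and from -0.997 to 1.31 downstream (the same libraries). Likewise, summits ranged from -0.912 to 1.86 at 2-5 kb downstream (the same libraries) and from -0.897 to 0.0702 at 1-2 kb downstream (above 0 without CDDD11-8 replicate 2). Upstream minus downstream coverage at 2-5 kb ranged from -0.391 to 0.458 (below 0 without CDDD11-8 or vehicle replicate 2), and lone minus other promoters at 0.3-1 kb from -0.509 to 0.191 (above 0 without CDDD11-8 replicate 1 or vehicle replicate 1). Coverage at 2-5 kb downstream was -0.101 with the Ensembl canonical isoform, -0.621 with peaks within 1 kb merged and -0.0990 when own-gene starts within 300 bp were not counted, a rule chosen after seeing the data. Summits at 1-2 kb downstream were 0.819 at -log10 q of at least 5, 2.50 with equal numbers of peaks, 0.182 with the canonical isoform, 1.05 in gene-free flanks, 0.596 in genes of at least 10 kb and 0.0968 with no other start within 20 kb. Upstream minus downstream coverage at 2-5 kb was -0.463 at the stricter q, -1.03 with equal numbers of peaks, -0.0792 with protein-coding starts only and -0.707 in genes of at least 10 kb. Lone minus other promoters at 0.3-1 kb was 0.206 with merged peaks, 0.0476 with protein-coding starts, 0.223 with 20 kb, 1.59 in long genes, 1.72 with own-gene starts not counted, 0.568 without the promoter peak and 9.21 among occupied promoters. At 1-2 kb it was 6.13 among occupied promoters and 1.33 without the promoter peak, and at 2-5 kb 1.97 without it. Upstream coverage outside the promoter peak was 1.03 at 1-2 kb and 0.583 at 2-5 kb with equal numbers of peaks, 0.612 at 2-5 kb in gene-free flanks, and 0 at 0.3-1 kb with merged peaks, which leave nothing separate there.

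Counts of promoters whose libraries did not overlap are given as CDDD11-8 higher or lower. They stand without the share over all promoters under each setting, so they show only how the counts depend on the setting. Lone promoters numbered 4241 with a gene-free flank, 1877 when occupied and 4534 in genes of at least 10 kb. Equal numbers of peaks and leaving out the promoter peak kept all 6413. With no other start within 20 kb (4132 lone promoters) the counts were 463 higher and 38 lower at 0.3-1 kb, 663 and 36 at 1-2 kb, 283 and 81 at 2-5 kb, and 20 and 103 at 5-10 kb. With own-gene starts not counted (8507) the higher counts were 1122, 1656 and 685 in the first 3 windows, and with protein-coding starts only (9093) there were 1675 higher at 1-2 kb, 798 higher and 346 lower at 2-5 kb, and 133 higher and 487 lower at 5-10 kb. In the 4 windows the lower counts were 49, 59, 143 and 179 with the canonical isoform (4939), 51, 67, 123 and 147 with equal numbers of peaks, 29, 26, 36 and 63 in gene-free flanks (54 higher at 5-10 kb) and 30, 52, 123 and 140 among occupied promoters (44 higher at 5-10 kb). In genes of at least 10 kb 57 and 64 were lower in the first 2 windows. Without the promoter peak 10, 22 and 72 were higher in the first 3 windows and 17 and 53 lower in the first 2. Of the named genes, TMEM268 gave 5.92 with merged peaks, KLF16 21.9 without the promoter peak, and both KLF16 and GNG13 0 with merged peaks, when the whole flank was covered in all libraries.

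With same-numbered libraries paired as a replicate block, the difference at 1-2 kb upstream was 8.45 and its exact p 0.5, the smallest that 2 pairs allow. No call could change. The labels do not say that the numbers pair the libraries. Deviations of same-numbered libraries from their group means correlated at -0.0132 to 0.0848 across occupied lone promoters. In both treatments, however, the list of replicate 1 held more peaks than that of replicate 2. These values do not decide whether the libraries are paired.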

Other observations

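The 4093 lone promoters without a promoter peak in any library had little RNAPII anywhere in the flank, which near the TSS follows from how they were chosen. At 5-10 kb upstream, which that choice did not use, peaks covered 1.38% and 0.957% with vehicle and 0.475% and 0.338% with CDDD11-8, and 3.74% and 2.86% against 1.42% and 0.904% of these promoters had a summit there. At 5-10 kb downstream of the same promoters coverage was 1.45% and 1.33% against 1.35% and 1.07%, where the groups overlapped.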
